A study of Rattus norvegicus with 18 samples.

Results

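The Wnt ligands described here are Wnt2, Wnt2b, Wnt4, Wnt5a, Wnt6, Wnt7b, Wnt9b, Wnt10a and Wnt11, a set of secreted signalling proteins whose messenger RNA was measured in rat renal parenchyma after the left ureter had been tied off. They were picked by gene symbol from the deposited expression table, where each symbol matched 1 gene, and they make up 9 of the 30957 genes in that table. It holds 10 further Wnt ligand genes, which are given for comparison. RNA sequencing covered 18 libraries, of which 5 came from kidneys obstructed for 1 day, 5 for 3 days, 5 for 7 days and 3 carried the label 14 days. All were from rats with a silk ligature of the left ureter placed under ketamine anaesthesia, and no strain, sex or age was given in the labels used here. Rats with a sham operation are also named in the design but were not analysed here, and all comparisons are between durations. All libraries carry the same batch entry.

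Wnt proteins are lipid-modified in the endoplasmic reticulum by the acyltransferase Porcn and carried to the cell surface by the transporter Wls. At the receiving cell they bind Frizzled receptors, either with the co-receptors Lrp5 and Lrp6, which leads to stabilisation of beta-catenin and to TCF/LEF-dependent transcription, or with Ror and Ryk receptors, which act on cell polarity and movement without beta-catenin. In the developing kidney Wnt9b from the ureteric bud induces nephron formation, Wnt4 carries the induced mesenchyme through its change to epithelium, Wnt11 acts in bud branching and Wnt7b from the collecting duct is needed for the medulla to form.

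The libraries held 5488540 to 12049915 counts. The proximal tubule phosphate carrier Slc34a1 ranged from 27.5 to 1170 FPKM (a level per transcript length and library depth) in the 1-, 3- and 7-day libraries. In replicate 3 labelled 14 days some markers of several nephron segments were low. Slc34a1 stood at 8.17, the podocyte gene Nphs1 at 0.134, the distal genes Calb1 and Kcnj1 at 0.546 and 0.872 and Slc5a12 at 0.233 FPKM. Other markers of the same segments were not low there, among them the proximal tubule genes Aqp1 and Dpep1 at 161 and 5.14 FPKM. The podocyte gene Podxl stood at 131 FPKM. Replicate 1 labelled 14 days was low in some proximal tubule markers, with Lrp2 at 6.83 and Cubn at 1.11 FPKM, but not in Slc34a1 or Aqp1 (54.9 and 116). The sum of 11 proximal tubule markers was 274, 1740 and 201 FPKM in the libraries labelled 14 days and 418 to 3720 in the others. That of 6 loop and distal markers was 257, 2670 and 35.1, against 199 to 705, with Umod at 2270 in replicate 2. The distal marker Pvalb was listed at 0 in all libraries but replicate 1 labelled 14 days. Havcr1 and Spp1, which injured tubules normally raise, stood at 188 to 1040 and at 5640 to 15400 FPKM in the 1-, 3- and 7-day libraries but at 0.317 to 7.45 and 36.8 to 258 FPKM in the libraries labelled 14 days, against what an obstructed kidney should show. Mitochondrial transcripts took 14.4 to 27.36% of counts in those 3 libraries and 7.11 to 13.57% elsewhere. On the first principal component (40.5% of variance) replicates 1 and 3 of the libraries labelled 14 days lay apart from the rest, with replicate 5 of the 1-day group between, and on the second (18.6%) replicate 2 of the libraries labelled 14 days lay apart. Results that touch these libraries are given with and without them. The labels do not tie libraries to separate animals, and p-values therefore rest on library-to-library spread, part of which may be technical. In bulk tissue, fewer cells of a type and less RNA per cell cannot be told apart.

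The promoters of the ligands on which the results turn are shown first. Wnt4, Wnt9b and Wnt5a were highest in replicates 1 and 3 labelled 14 days, where Wnt2 had no counts. The part of the promoters in these levels was not tested. Each is the 250 bases before the annotated start in RefSeq on GRCr8, written 5′ to 3′ on the gene's strand in lower case, with every GC box (GGGCGG, or CCGCCC on the other strand) in capitals. The table of promoters held 16 of the 19 Wnt genes. Wnt7b was not among them.
Wnt2, chr4:47340285-47340534, minus strand: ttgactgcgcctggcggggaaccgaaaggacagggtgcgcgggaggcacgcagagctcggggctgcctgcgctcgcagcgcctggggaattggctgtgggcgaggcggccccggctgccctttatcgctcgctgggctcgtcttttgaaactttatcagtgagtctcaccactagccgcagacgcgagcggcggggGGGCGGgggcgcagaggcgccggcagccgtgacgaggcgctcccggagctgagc
Wnt4, chr5:154797200-154797449, plus strand: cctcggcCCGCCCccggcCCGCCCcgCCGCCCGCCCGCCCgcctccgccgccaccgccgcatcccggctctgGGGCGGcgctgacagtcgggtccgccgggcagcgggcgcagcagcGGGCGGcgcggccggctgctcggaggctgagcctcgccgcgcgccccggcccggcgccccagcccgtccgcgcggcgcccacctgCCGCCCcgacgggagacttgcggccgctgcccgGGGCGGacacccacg
Wnt9b, chr10:89157066-89157315, minus strand: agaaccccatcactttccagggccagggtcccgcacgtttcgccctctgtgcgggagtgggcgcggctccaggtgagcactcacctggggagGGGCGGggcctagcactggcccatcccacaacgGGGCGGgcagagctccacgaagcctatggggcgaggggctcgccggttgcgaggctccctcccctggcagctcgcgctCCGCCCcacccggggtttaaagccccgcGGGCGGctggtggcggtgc
Wnt5a, chr16:3703415-3703664, plus strand: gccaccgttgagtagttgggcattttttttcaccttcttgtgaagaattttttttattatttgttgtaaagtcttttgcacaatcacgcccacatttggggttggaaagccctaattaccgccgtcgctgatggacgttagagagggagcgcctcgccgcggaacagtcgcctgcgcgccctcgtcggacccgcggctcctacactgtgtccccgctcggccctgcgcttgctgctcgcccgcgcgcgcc
Wnt4 had the densest window, with 86.4% G and C, 47 CpG dinucleotides and 9 GC boxes, some of which overlap each other. Wnt9b had 72.4% G and C, 22 CpG and 4 GC boxes, Wnt2 had 70.4%, 29 and 1, and Wnt5a had 57.2%, 25 and 0. Over all 33469 promoters of this length the median was 51.2% G and C and 5 CpG, and 30.5% held a GC box on either strand. CTTTG, the core of the TCF/LEF site, was in none of these 4 windows and in 48.2% of all promoters, its longer form CTTTGAT in 3.15%. The TATA box TATAAA was likewise absent from the 4 and found in 12.9% of all promoters. The AP-1 site TGANTCA was absent and found in 6.34%. The GATA factor site AGATAA was absent and found in 10.3%. A match or its absence describes these letters in this window only.

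Wnt2, which signals through beta-catenin and is known from lung and placental vessel development, was a leading ligand at 1 day and the member with the clearest difference between durations. Its gene (ENSRNOG00000051905) lies on chromosome 4 from 45292437 to 45332420 on the minus strand in the deposited coordinates, whose genome build is not given in the sources used here. The 1-day libraries stood at 6.9, 6.94, 6.87, 5.21 and 4.26 FPKM. The 3-day libraries stood at 0.749, 1.96, 1.46, 1.27 and 3.29 FPKM, and the 7-day libraries at 0.785, 1.64, 0.672, 0.899 and 0.383 FPKM. Every 3-day and every 7-day library was below every 1-day library, while the 3-day and 7-day ranges overlapped. Of all genes tested, 8.26% had ranges that did not overlap between 1 and 3 days and 21.7% between 1 and 7 days. No read was counted for Wnt2 in any of the 3 libraries labelled 14 days.

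**Figure D1:**
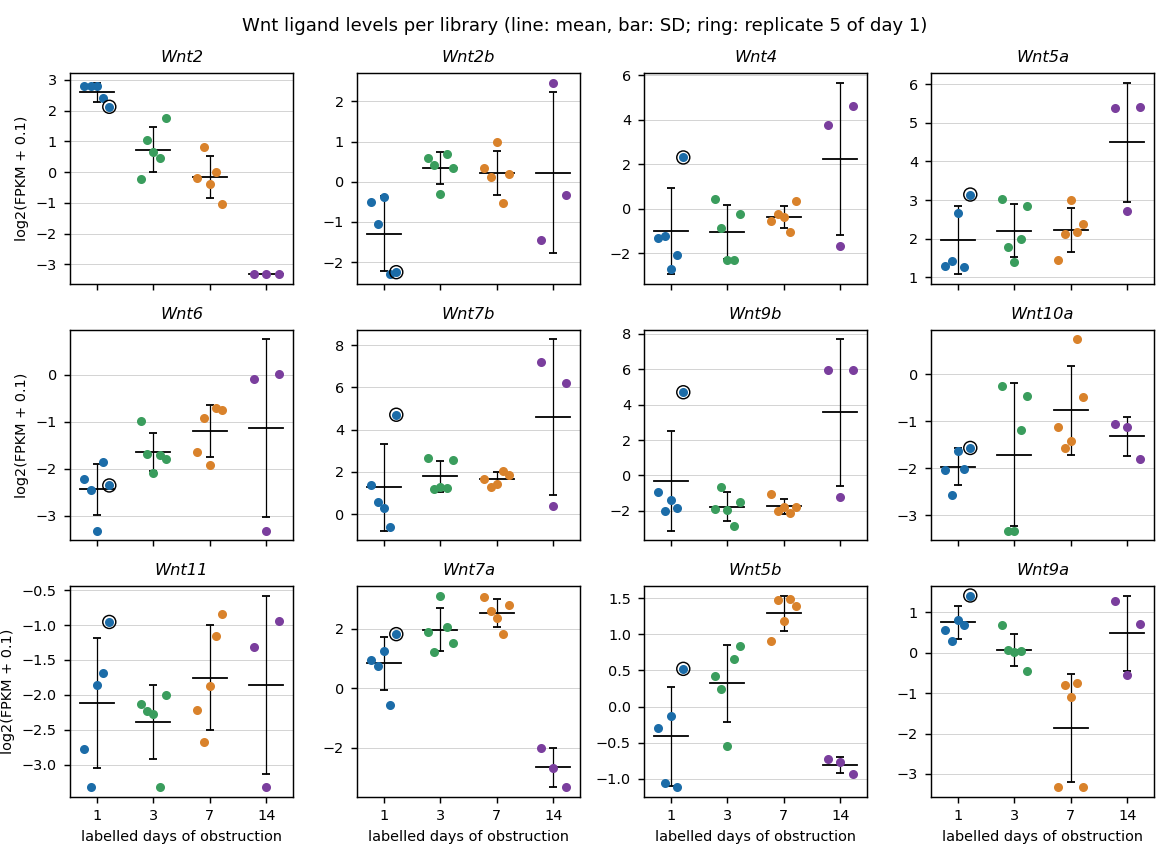
Level of 12 Wnt ligands in each library as log2(FPKM + 0.1), by labelled days of obstruction, with 1 point per library, a line at the group mean and a bar of 1 SD on that scale; the ring marks replicate 5 of the 1-day group. Wnt2 steps down from 1 to 7 days and is at 0 counts in the libraries labelled 14 days, while Wnt4, Wnt7b and Wnt9b are high in the ringed library and in 2 of the 3 libraries labelled 14 days.

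By edgeR's quasi-likelihood test, Wnt2 fell 3.54-fold from 1 to 3 days (log2 fold change -1.82 ± 0.36 SE, Benjamini-Hochberg adjusted p = 0.00717) and 7.28-fold from 1 to 7 days (-2.86 ± 0.39, adjusted p = 0.000109), comparisons in which 10.5% and 38.2% of all 13991 genes tested passed. Between 3 and 7 days the difference of -1.04 ± 0.41 did not pass (edgeR adjusted p = 0.115). Both calls held in all 24 alternative fits of each comparison, and leaving out single libraries moved the 7-day value only between -3.2 and -2.69. Against the floor of 3 counts over the group, Wnt2 in the libraries labelled 14 days was at least 7.17-fold lower than at 7 days, at least 13.5-fold lower than at 3 days and at least 49.1-fold lower than at 1 day. The edgeR adjusted p was 0.00139 against 7 days and 3.11e-05 against 1 day. With replicate 2 as the only library labelled 14 days, the call against 7 days was lost (edgeR adjusted p = 0.0595, the lone library being taken to vary like the other groups). The summed level of 11 fibroblast markers went the other way, from 183 to 281 FPKM at 1 day to 653 to 964 at 7 days, and the collagen gene Col1a1 among them from 13.7 to 25.2 FPKM to 78.7 to 113. That of 11 proximal tubule markers was 418 to 1050 FPKM at 1 day and 667 to 2500 at 7 days. The part of either in the Wnt2 difference was not tested.

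Wnt2b, the closest relative of Wnt2 and its partner in lung specification, was higher after 3 and 7 days than after 1 day. The gene (ENSRNOG00000014385, chromosome 2, 207440886 to 207455258, minus strand) was counted 1 to 13 times per library at 1 day and 7 to 30 times at 3 and 7 days, so single libraries weigh heavily. Its level was 0.604, 0.385, 0.669, 0.103 and 0.11 FPKM at 1 day and 1.4, 1.23, 0.703, 1.51 and 1.16 FPKM at 3 days. At 7 days it was 1.18, 0.985, 1.89, 0.589 and 1.05 FPKM. The 1- and 3-day ranges did not touch, and 4 of the 5 libraries of 7 days were above all those of 1 day.

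The rise of Wnt2b was 1.57 ± 0.43 on the log2 scale from 1 to 3 days (edgeR adjusted p = 0.034) and 1.45 ± 0.44 from 1 to 7 days (adjusted p = 0.0175), with -0.12 ± 0.39 between 3 and 7 days (adjusted p = 0.878). Both calls were lost when all 18 libraries shared the estimate of spread (edgeR adjusted p = 0.251 and 0.144). The call at 3 days was also lost without any of replicates 2 and 4 of 1 day or 1, 2 and 4 of 3 days (adjusted p 0.0501 to 0.0724) and without a filter on low counts (0.0536), and that at 7 days without replicate 3 of 7 days (0.0567). In the libraries labelled 14 days Wnt2b stood at 0.266, 5.41 and 0.7 FPKM, so the single high value was in replicate 2. Against 1 day the rise was 2.83 ± 0.78 (edgeR adjusted p = 0.0117), but without that library it was 0.38 (adjusted p = 0.668), and it did not pass on the FPKM scale (limma adjusted p 0.0925 and 0.0958). Against 7 days it was 1.36 ± 0.73 (adjusted p = 0.152), and -1.07 (0.169) without that library.

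Wnt9b, the inducer of nephron formation, was near its detection limit in most libraries and among the highest ligands in 3 of them. The gene (ENSRNOG00000003807, chromosome 10, 91785893 to 91807937, minus strand) stood at 0.43, 0.148, 0.277, 0.184 and 25.8 FPKM at 1 day. At 3 days it stood at 0.168, 0.544, 0.16, 0.0407 and 0.26 FPKM and at 7 days at 0.388, 0.147, 0.193, 0.13 and 0.196 FPKM. The libraries labelled 14 days gave 61.3, 0.334 and 61.9 FPKM. The high libraries were thus replicate 5 of the 1-day group and replicates 1 and 3 of those labelled 14 days, and all others were at or below 0.544 FPKM.

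Wnt7b, the collecting duct ligand, and Wnt4 were high in the same 3 libraries. Wnt7b (ENSRNOG00000015750, chromosome 7, 126420656 to 126465723, minus strand) stood at 2.49, 1.41, 1.13, 0.555 and 26 FPKM at 1 day and at 6.19, 2.21, 2.38, 2.24 and 5.82 FPKM at 3 days. At 7 days it stood at 3.11, 2.38, 2.6, 4.09 and 3.54 FPKM, and in the libraries labelled 14 days at 146, 1.2 and 73.8 FPKM. Apart from replicate 5, the 1-day libraries reached at most 2.49 FPKM, and their range overlapped those of 3 and 7 days.

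Wnt4 (ENSRNOG00000013166, chromosome 5, 155649217 to 155672579, plus strand) stood at 0.304, 0.333, 0.0548, 0.137 and 4.86 FPKM at 1 day and at 1.27, 0.456, 0.104, 0.106 and 0.752 FPKM at 3 days. At 7 days it stood at 0.581, 0.742, 0.686, 0.381 and 1.17 FPKM, and in the libraries labelled 14 days at 13.7, 0.213 and 24.6 FPKM. Apart from replicate 5, the 1-day libraries reached at most 0.333 FPKM, and the lowest 7-day library stood at 0.381. The edgeR difference from 1 to 7 days without replicate 5 did not pass (adjusted p = 0.0612). The share of all genes with ranges apart in that smaller set was not worked out.

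Part of a list of 10 markers of collecting duct principal cells was high in the same 3 libraries as these ligands. The summed level of the list was 253 to 344 FPKM in the other 1-day libraries and 1130 in replicate 5, 222 to 377 at 3 days and 191 to 405 at 7 days, and 1650, 338 and 1440 in the libraries labelled 14 days. Aqp2 itself stood at 371 FPKM in replicate 5 of the 1-day group, at 694, 43.8 and 777 FPKM in the libraries labelled 14 days and at 14.4 to 57.9 FPKM elsewhere. The water channels Aqp2, Aqp3 and Aqp4, the vasopressin receptor Avpr2 and the transcription factors Gata3 and Elf5 were each higher in those 3 libraries than in any other. The other 4 markers, the sodium channel subunits Scnn1a, Scnn1b and Scnn1g and the enzyme Hsd11b2, were not: in replicate 5 of the 1-day group and replicate 1 labelled 14 days they lay within the range of the other libraries. In replicate 3 labelled 14 days they stood at 1.33, 0.616, 0.305 and 2.5 FPKM, the lowest of all libraries, so the sum there was carried mainly by Aqp2 and Aqp3. None of the 10 markers was at 0 in every library. In replicate 2 labelled 14 days, where Wnt9b, Wnt7b and Wnt4 were low, Aqp2 and Aqp3 were at the level of the earlier groups.

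**Figure D2:**
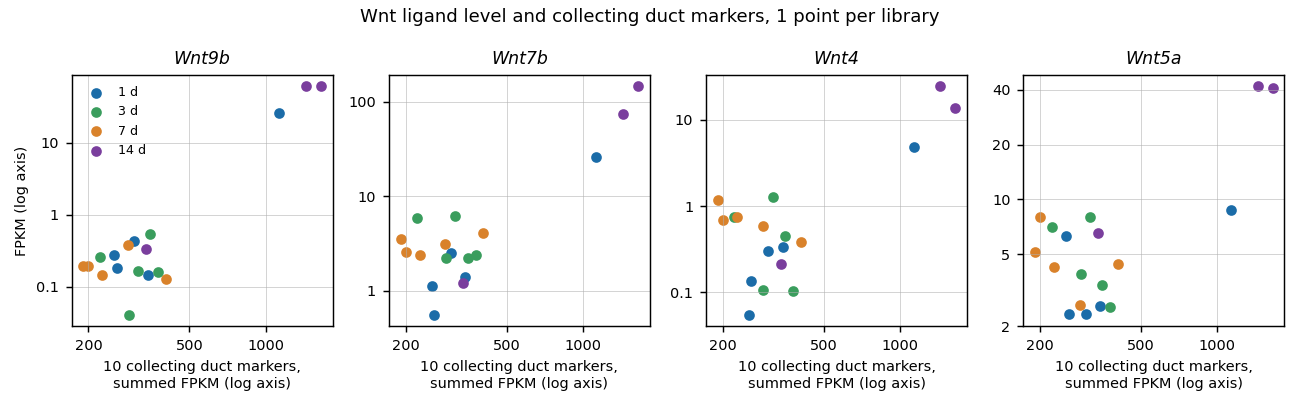
Level of Wnt9b, Wnt7b, Wnt4 and Wnt5a in FPKM against the summed FPKM of 10 collecting duct principal cell markers, both axes logarithmic, with 1 point per library coloured by labelled days. Replicate 5 of the 1-day group (sum 1130) and 2 libraries labelled 14 days (1650 and 1440) stand to the right with the highest levels of Wnt9b, Wnt7b and Wnt4, and all other libraries lie at sums of 191 to 405.

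Other cell types also stood out in these libraries. The sum of 8 markers of urothelium, the lining of the renal pelvis, was 87.8 FPKM in replicate 5 of the 1-day group, 282 in replicate 1 and 8.36 in replicate 3 of the libraries labelled 14 days, and 70.7 and 11.8 in replicates 1 and 5 of the 3-day group. It was at most 5.43 in every other library. Those replicates 1 and 5 were also the 3-day libraries with the highest Wnt7b, at 6.19 and 5.82 FPKM. The sum of 7 adipocyte markers was 135 FPKM in replicate 5 of the 1-day group and 219, 43.3 and 2140 in the libraries labelled 14 days, against 10.5 to 44.7 elsewhere. The part of these cell types in the ligand levels was not tested.

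Between 1 and 3 days Wnt9b fell by 4.52 ± 1.34 on the log2 scale (edgeR adjusted p = 0.0442), and between 1 and 7 days by 4.73 ± 1.37 (adjusted p = 0.0142). Both rested on replicate 5 of the 1-day group: without it the differences were -0.24 (edgeR adjusted p = 0.786) and -0.45 (adjusted p = 0.518). The first call was also lost when any 1 of the 3-day or 7-day libraries was left out (adjusted p 0.0507 to 0.0979), when all 18 libraries shared a fit (0.121), with only these groups in the fit (0.0938) and without a filter (0.0549). Neither call held on the FPKM scale (limma adjusted p 0.254 to 0.406). The mean at 1 day was 5.38 ± 11.4 FPKM (SD, n = 5) with that library and 0.26 ± 0.126 (n = 4) without it, against 0.235 ± 0.19 at 3 days and 0.211 ± 0.103 at 7 days (n = 5 each).

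Wnt7b and Wnt4 turned direction with the same library. For Wnt7b the difference of -0.75 ± 0.78 from 1 to 3 days (edgeR adjusted p = 0.568) became 1.37 ± 0.41 without it (adjusted p = 0.0371), and that of -1.09 ± 0.79 from 1 to 7 days (0.293) became 1.03 (0.055). For Wnt4 the values were -1.08 ± 0.93 (0.485) against 1.42 ± 0.69 (0.181) at 3 days, and -0.78 ± 0.93 (0.537) against 1.71 (0.0612) at 7 days. Neither differed between 3 and 7 days (Wnt7b -0.34 ± 0.8, edgeR adjusted p = 0.826; Wnt4 0.3 ± 0.96, adjusted p = 0.874) beyond the spread of the libraries.

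**Figure D3:**
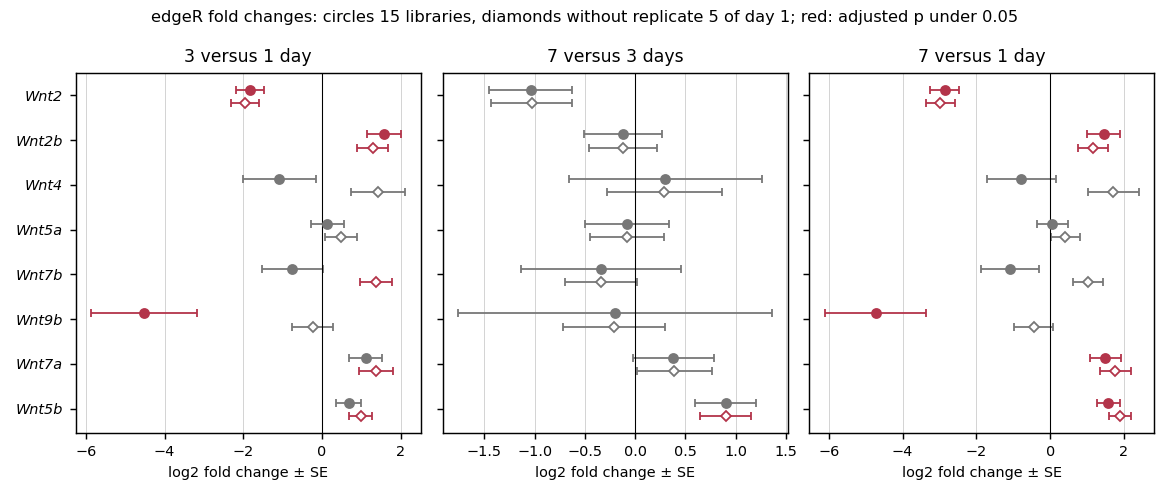
Log2 fold change ± SE from edgeR for 8 Wnt ligands in 3 comparisons, with circles for the fit on 15 libraries, diamonds for the fit without replicate 5 of the 1-day group and red for an adjusted p under 0.05. Wnt2 stays below 0 in both fits, Wnt9b moves from -4.52 to -0.24 at 3 versus 1 day, and Wnt7b moves from -0.75 to 1.37.

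Wnt5a, which acts through Ror2 on cell polarity and drives outgrowth of limbs and other structures, was among the highest ligands at every duration. The gene (ENSRNOG00000015618, chromosome 16, 4469468 to 4489860, plus strand) stood at 2.34, 2.6, 6.27, 2.33 and 8.74 FPKM at 1 day and at 8.01, 3.37, 2.55, 3.86 and 7.08 FPKM at 3 days. At 7 days it stood at 2.63, 4.26, 7.97, 4.43 and 5.16 FPKM. The 3 ranges overlapped almost in full. The edgeR differences were 0.13 ± 0.42 from 1 to 3 days (adjusted p = 0.876), -0.08 ± 0.42 from 3 to 7 days (0.926) and 0.05 ± 0.42 from 1 to 7 days (0.942), and their sign turned with single libraries left out. In the libraries labelled 14 days Wnt5a stood at 41.2, 6.52 and 42.1 FPKM, again high in replicates 1 and 3.

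Wnt6, Wnt10a and Wnt11 were at the edge of detection, and none passed the filter on low counts in the fit of the 1-, 3- and 7-day libraries. Wnt6 (ENSRNOG00000017409, chromosome 9, 82033543 to 82047166, plus strand) had 0 to 12 counts per library. It stood at 0.116, 0.0831, 0, 0.177 and 0.0949 FPKM at 1 day, 0.403, 0.211, 0.135, 0.206 and 0.188 at 3 days and 0.218, 0.425, 0.163, 0.508 and 0.494 at 7 days, with overlapping ranges between the first and the last. In the unfiltered edgeR fit, where 23.8% of genes passed, it rose by 1.85 from 1 to 7 days (adjusted p = 0.0232).

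Wnt10a, known from teeth and skin appendages, lies beside Wnt6 (ENSRNOG00000052510, chromosome 9, 82053581 to 82066047, plus strand). It ranged from 0.0694 to 0.238 FPKM at 1 day, from 0 to 0.741 at 3 days and from 0.236 to 1.58 at 7 days, where its highest value came from replicate 4. The unfiltered difference from 1 to 7 days was 1.66 (edgeR adjusted p = 0.139). Wnt11 (ENSRNOG00000015982, chromosome 1, 163797660 to 163813756, plus strand) had 0 to 11 counts per library and at most 0.46 FPKM, and its unfiltered differences had edgeR adjusted p of 0.496 or more. In those fits 4.73% of genes passed from 1 to 3 days, 3.72% from 3 to 7 days and 24.3% from 7 to 14 days.

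The mix of ligands shifted between 1 and 7 days. Wnt2 made up 33.46 to 45.95% of the summed FPKM of all 19 Wnt genes in replicates 1 to 4 of the 1-day group, 5.44% in replicate 5, 2.93 to 13.5% at 3 days and 1.68 to 8.13% at 7 days. Wnt7a, not a member of the set, took up to 48.4% in a 3-day library and 17.35 to 42.35% at 7 days. In replicate 5 of the 1-day group Wnt7b and Wnt9b led with 33.17 and 32.99%. By mean FPKM the order at 1 day began with Wnt7b, Wnt2, Wnt9b and Wnt5a, and at 3 days with Wnt5a, Wnt7a, Wnt7b and Wnt2. At 7 days it began with Wnt7a, Wnt5a, Wnt7b and Wnt5b. At all 3 durations the ranges of neighbours in that order overlapped. The places of Wnt7b and Wnt9b at 1 day rested on replicate 5. Without it the 1-day order began with Wnt2 (6.48 FPKM), Wnt5a (3.39), Wnt7a (1.56) and Wnt9a (1.41), with Wnt7b at 1.4 and Wnt9b at 0.26.

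**Figure D4:**
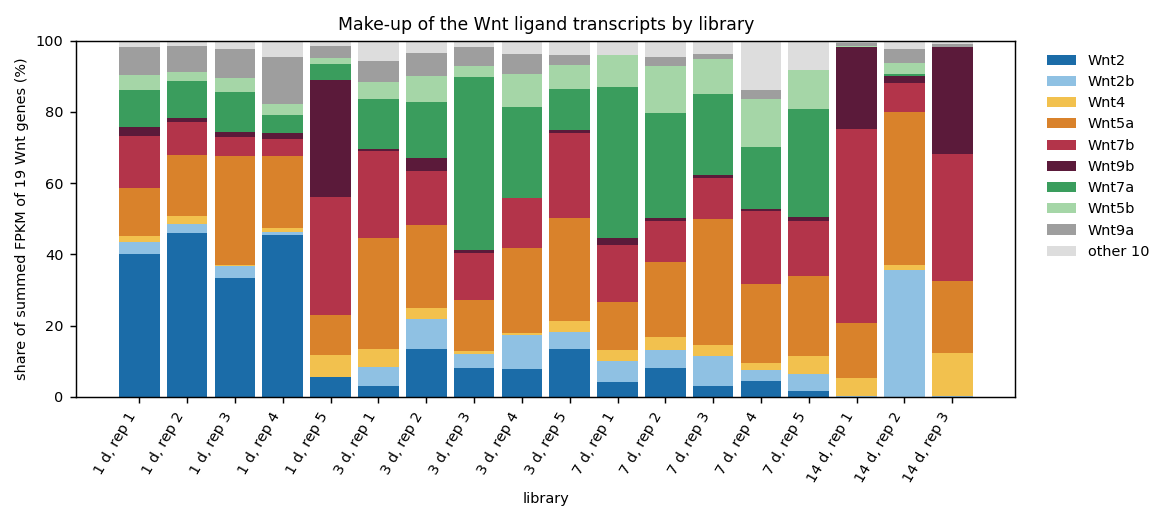
Share of the summed FPKM of 19 Wnt genes taken by each ligand, as 1 stacked bar per library from 0 to 100%, with 10 ligands joined as other. Wnt2 takes the broadest band in the first 4 libraries of 1 day (33.46 to 45.95%), and Wnt7b with Wnt9b fills most of the bars of replicate 5 of 1 day and of replicates 1 and 3 labelled 14 days.

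Wnt7a and Wnt5b were the other ligands that passed the filter, and both rose from 1 to 7 days. Wnt7a, known from limb and female reproductive tract patterning, went from 1.94 ± 1.05 FPKM at 1 day to 4.28 ± 2.54 at 3 days and 5.94 ± 1.81 at 7 days (SD, n = 5 each), a rise of 1.49 ± 0.42 on the log2 scale between 1 and 7 days (edgeR adjusted p = 0.0115). Wnt5b, the closest relative of Wnt5a, went from 0.722 ± 0.397 to 1.21 ± 0.422 and 2.37 ± 0.396 FPKM, a rise of 1.58 ± 0.31 (edgeR adjusted p = 0.00141). Neither passed in edgeR between 1 and 3 days with all libraries, though Wnt7a did in DESeq2 (1.14, DESeq2 adjusted p = 0.0473). Both passed in edgeR without replicate 5 of the 1-day group (Wnt7a 1.38, edgeR adjusted p = 0.046, and Wnt5b 0.99, adjusted p = 0.0381). Wnt9a, which acts in joints, stood at 1.64 ± 0.552, 0.984 ± 0.315 and 0.267 ± 0.249 FPKM on 0 to 16 counts per library. Its unfiltered edgeR difference from 1 to 7 days was -2.58 (adjusted p = 0.00175).

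Of the 9 members, 6 passed the filter among the 1-, 3- and 7-day libraries. From 1 to 3 days Wnt2b rose, as did 5.27% of all genes tested, and Wnt2 and Wnt9b fell, as did 5.18%, and the median log2 fold change of the 6 was -0.91, against -0.021 for all genes tested. Without replicate 5 of the 1-day group 7 members were tested, Wnt2b and Wnt7b rose, Wnt2 fell and the median was 1.17. In that fit 1011 of 14081 genes tested rose and 1005 fell, with a median of 0.005. From 1 to 7 days Wnt2b rose (18.0% of all genes did) and Wnt2 and Wnt9b fell (20.2%), with a median of -0.93 against -0.006. Without that library 1 rose, 1 fell and the median was 1.03, where 2925 of 14081 genes tested rose and 2916 fell, with a median of 0.008. From 3 to 7 days none of the 6 passed in edgeR or DESeq2. In edgeR 7.92% of all genes tested passed (4.75% higher and 3.17% lower, with ranges apart for 8.49%). Of the 6, 1 had an unadjusted edgeR p under 0.05, as did 3789 of all 13991 genes tested. These comparisons share libraries, so their values are given side by side and are not independent. In a joint test of 1, 3 and 7 days 34.4% of genes passed, with Wnt2 (edgeR adjusted p = 0.000229), Wnt2b (0.0225) and Wnt9b (0.00973) among them. Wnt9b lost that call without replicate 5 of the 1-day group (0.763) and on the FPKM scale (limma adjusted p 0.366 and 0.396), and Wnt2b lost it with all 18 libraries (0.22) and without replicate 4 of the 1-day group (0.0523). On the FPKM scale the split of all calls into higher and lower moved from 738 and 725 to 747 and 459 for 1 to 3 days, from 664 and 444 to 925 and 198 for 3 to 7 days, and from 2518 and 2833 to 3336 and 1921 for 1 to 7 days.

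The libraries labelled 14 days are compared next, with the limits given above on their labels. Between 7 and 14 days 4 of 7 members tested rose, Wnt4, Wnt5a, Wnt7b and Wnt9b, and Wnt2 fell, where 38.3% of all genes passed (21.4% higher and 16.9% lower) and ranges failed to overlap for 29.5%. Wnt9b rose 219-fold (log2 7.77 ± 1.69, edgeR adjusted p = 0.00229), Wnt7b 26.9-fold (4.75 ± 1.12, 0.0038), Wnt4 20.1-fold (4.33 ± 1.18, 0.00902) and Wnt5a 7.02-fold (2.81 ± 0.53, 0.00089). With replicate 2 as the only library labelled 14 days all 4 calls were lost: Wnt9b 1.27 (edgeR adjusted p = 0.749), Wnt7b -0.78 (0.745), Wnt4 -1.12 (0.713) and Wnt5a 1.01 (0.266). On the log2(FPKM + 0.1) scale Wnt7b (0.0666) and Wnt4 (0.0971) did not pass. Wnt2b (above) and Wnt10a, at -0.63 ± 0.88 (edgeR adjusted p = 0.611), were not called, and Wnt6 and Wnt11 did not pass the filter. Without replicate 2 labelled 14 days 8 members were tested, of which 5 rose, the 4 above and Wnt6, and Wnt2 fell. Wnt6 had 11 and 12 counts in replicates 1 and 3 labelled 14 days and at most 10 in any 1-, 3- or 7-day library. It passed the filter there through the group in which it was high, so its rise adds no support. In that fit 3896 of 14852 genes tested rose and 3563 fell.

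Against 1 day, where 32.0% of genes passed (17.7% higher and 14.3% lower) and ranges failed to overlap for 23.6%, 4 of 7 members rose and Wnt2 fell. Wnt5a rose 7.36-fold (2.88 ± 0.53, edgeR adjusted p = 0.000978), Wnt7b 12.9-fold (3.69 ± 1.07, 0.016) and Wnt4 11.9-fold (3.57 ± 1.13, 0.0246), beside the rise of Wnt2b that rested on replicate 2. Wnt9b differed by 3.07 ± 1.34 (0.0904) and passed without replicate 5 of the 1-day group at 7.33 (edgeR adjusted p = 0.000133) or without replicate 2 labelled 14 days at 3.63 (0.024). The calls of Wnt7b and Wnt4 were lost with only these groups in the fit (0.135 and 0.143) and without replicate 1 labelled 14 days (0.0936 and 0.0522), and that of Wnt4 also without replicate 3 labelled 14 days (0.0996) or replicate 1, 2 or 4 of 1 day (0.052 to 0.0567). With replicate 2 alone Wnt5a was at 1.08 (0.249), Wnt7b at -1.83 (0.439) and Wnt4 at -1.86 (0.535). Wnt10a differed by 1.07 ± 0.96 (0.415), and Wnt6 stood at 0.84, 0 and 0.905 FPKM. In the unfiltered fit, where 20.4% of genes passed, Wnt6 rose by 2.79 (edgeR adjusted p = 0.0129). Of 10 collecting duct markers Aqp2, Avpr2, Gata3 and Elf5 rose against both groups and Aqp3 and Aqp4 against 7 days, while Hsd11b2 and the sodium channel subunits were not called. The median of all genes tested was 0.073 and 0.056 on the count scale but -0.258 and -0.187 on the FPKM scale, where the split into higher and lower calls moved from 3102 and 2458 to 954 and 4894 and from 2570 and 2076 to 962 and 3682.

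In those libraries Wnt7a and Wnt5b were below their 7-day levels, as Wnt2 was. Wnt7a was at 0.149, 0.0565 and 0 FPKM, a fall of 6.04 ± 0.82 on the log2 scale from 7 days (edgeR adjusted p = 7.42e-05). Wnt5b was at 0.508, 0.487 and 0.424 FPKM, a fall of 2.0 ± 0.4 (adjusted p = 0.00125) that did not pass with replicate 2 alone (0.0584).

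Of 3 genes of Wnt secretion, Wls was the one called with no library left out. Wls, the carrier of Wnt proteins, stood at 45.2, 39.5, 36.8, 37.8 and 38 FPKM at 1 day, at 76.3, 65.6, 93, 78.4 and 53.7 at 3 days and at 118, 83.7, 71.6, 68.6 and 90.4 at 7 days. Every library of 3 and 7 days was above every library of 1 day. Wls rose by 0.88 ± 0.16 from 1 to 3 days (edgeR adjusted p = 0.00535) and by 1.04 ± 0.16 from 1 to 7 days (0.000312), and both calls held in all 24 alternatives. It stood at 48.1, 42.3 and 37.1 FPKM in the libraries labelled 14 days, a fall of 0.68 ± 0.21 from 7 days (0.0164) that was lost in 3 of 28 alternatives. Porcn was tested and not called, and Notum, which removes the lipid, had too few counts. Without replicate 2 labelled 14 days Notum was tested too, and both genes rose against 7 days and against 1 day. In those fits 3896 and 3261 of 14852 genes tested rose. Notum stood at 2.46, 0 and 1.44 FPKM in the libraries labelled 14 days and at most at 0.287 FPKM elsewhere. With its library at 0 left out, it passed the filter through the group in which it was high, so its rise adds no support.

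Among 15 receptor genes 13 were tested, and from 1 to 7 days 2 rose and 4 fell, with a median of -0.22. Over all genes tested 38.2% were called in that comparison, 18.0% higher and 20.2% lower. Leaving out replicate 5 of the 1-day group turned the median to 0.06. In that fit 4 receptor genes rose and 3 fell, beside 2925 and 2916 of 14081 genes tested. The Frizzled receptor Fzd2 went from 3.67 to 5.91 FPKM at 1 day and 4.04 to 7.98 at 3 days to 10.4 to 15.3 at 7 days. Its 7-day libraries lay above all earlier ones, a rise of 1.25 ± 0.19 from 1 day (edgeR adjusted p = 0.000231) and of 0.98 ± 0.19 from 3 days (0.01, but 0.0541 with all 18 libraries in a fit). Ror2, the Wnt5a receptor, rose by 0.64 ± 0.2 (0.0181, lost in 1 of 24 alternatives). Fzd3 fell by 1.22 ± 0.2 (0.000423), the co-receptor Lrp6 by 0.87 ± 0.23 (0.00744) and Fzd5 by 0.61 ± 0.22 (0.0378, lost in 11 of 24 alternatives), and Ryk, named after its value was seen, also fell. From 1 to 3 days, where 10.5% of all genes tested passed, only Fzd3 did. It fell by 0.8 ± 0.2 (edgeR adjusted p = 0.0208, lost in 3 of 24 alternatives). In the fit without replicate 5 of the 1-day group 2 receptor genes rose and 1 fell, beside 1011 and 1005 of 14081 genes tested.

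Extracellular modulators, which bind Wnt proteins or their receptors, had 13 of 23 genes tested. Of these 4 rose from 1 to 3 days, where 5.27% of all genes rose. With all 18 libraries in a fit 1 of 16 rose, beside 168 of 14511 genes tested. Leaving out replicate 5 of the 1-day group, 3 of 13 rose, beside 1011 of 14081. The call of Dkk3 for 1 to 3 days was lost in 9 of 24 alternatives, that of Sfrp1 in 1 and that of Cpz in 0. From 1 to 7 days 6 rose and 2 fell, where 18.0% and 20.2% of all genes did, with a median of 0.67. Leaving out replicate 5 of the 1-day group, 8 rose and 2 fell, with a median of 0.9, beside 2925 and 2916 of 14081 genes tested. The largest rise was that of Cpz, a secreted carboxypeptidase with a Frizzled-like domain, which went from 1.68 to 3.41 FPKM at 1 day through 6.11 to 16.4 at 3 days to 26.1 to 42.9 at 7 days, with no overlap between groups. Its rise from 1 to 7 days was 13.0-fold (3.71 ± 0.28, edgeR adjusted p = 3.69e-06). The Wnt antagonist Sfrp1 rose by 2.1 ± 0.23 (2.92e-05), from 8.95 to 20.6 FPKM at 1 day to 45.3 to 78.5 at 7 days, and Dkk3 by 1.96 ± 0.25 (7.88e-05). Lgr4, a receptor for R-spondins, fell by 0.59 ± 0.15 (0.00758). The 11 fibroblast markers, of which 9 of 10 tested rose from 1 to 7 days, moved with these genes, and their part was not tested.

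The beta-catenin relay had all 11 genes tested, of which 3 rose and 2 fell from 1 to 7 days, with a median of -0.08, beside 38.2% of all genes called. Leaving out replicate 5 of the 1-day group, 4 rose and 2 fell, with a median of -0.01, beside 2925 and 2916 of 14081 genes tested. Gsk3b, the kinase that marks beta-catenin for destruction, fell by 1.12 ± 0.17 (edgeR adjusted p = 0.000195), from 12.8 to 21.6 FPKM at 1 day to 6.96 to 11.4 at 7 days, without overlap. Its scaffold partner Apc fell by 0.64 (0.000373). The TCF genes Tcf7l1 and Tcf7l2 rose by 0.7 (0.049) and 0.47 (0.0206), and both calls were lost with all 18 libraries in a fit (0.15 and 0.0505), among 16 and 5 of 24 alternatives. Dvl1, which relays the receptor signal, rose by 0.34 (0.00402). From 3 to 7 days none of the 11 passed in edgeR, where 7.92% of all genes tested did. Of the 11, 3 had an unadjusted edgeR p under 0.05, as did 3789 of all 13991 genes tested. Without replicate 5 of the 1-day group 1 passed, beside 1772 of 14081 genes tested.

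Of 9 genes known as beta-catenin targets 8 were tested, and 5 rose and none fell from 1 to 7 days, with a median of 0.95, beside 18.0% of all genes that rose and 20.2% that fell. Nkd2, a feedback inhibitor of the pathway, rose by 1.31 ± 0.23 (edgeR adjusted p = 0.000707), from 2.99 to 5.04 FPKM at 1 day to 6.83 to 13.1 at 7 days, again without overlap. Its relative Nkd1 rose by 1.12 ± 0.37 (0.0275) and the transcription factor Tcf7 by 1.05 ± 0.29 (0.0115). The others that rose were Axin2 and Ccnd1, named after their values were seen. With all 18 libraries in a fit 2 rose, beside 1787 of 14511 genes tested, and Nkd1 was lost (edgeR adjusted p = 0.112, among 8 of 24 alternatives). Without replicate 5 of the 1-day group 7 rose, beside 2925 of 14081 genes tested. The protease Mmp7 rose from 3 to 7 days by 3.38 ± 0.86 (0.0305), from 0.347 to 0.998 FPKM to 3.76 to 10.1, but lost the call with all 18 libraries (0.0668, among 7 of 24 alternatives). At 1 day it stood at 9.66 FPKM in replicate 5 and at most 0.655 in the others.

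All 10 genes of the planar polarity arm were tested, and from 1 to 7 days 4 rose and 1 fell, with a median of 0.24, beside 38.2% of all genes called (18.0% higher and 20.2% lower). Leaving out replicate 5 of the 1-day group, 3 rose and 1 fell, with a median of 0.19, beside 2925 and 2916 of 14081 genes tested. Prickle1, a core polarity protein, rose by 0.97 ± 0.13 (edgeR adjusted p = 0.000106), from 2.63 to 3.96 FPKM at 1 day to 5.32 to 7.75 at 7 days, without overlap, and by 0.89 ± 0.13 from 3 to 7 days (0.00227). The formin Daam2 rose by 0.86 (0.00282) while its relative Daam1 fell by 0.58 (0.000211). Prickle2 rose by 0.41 (0.0385), a call lost with all 18 libraries (0.123) and in 9 of 24 alternatives in all.

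**Figure D5:**
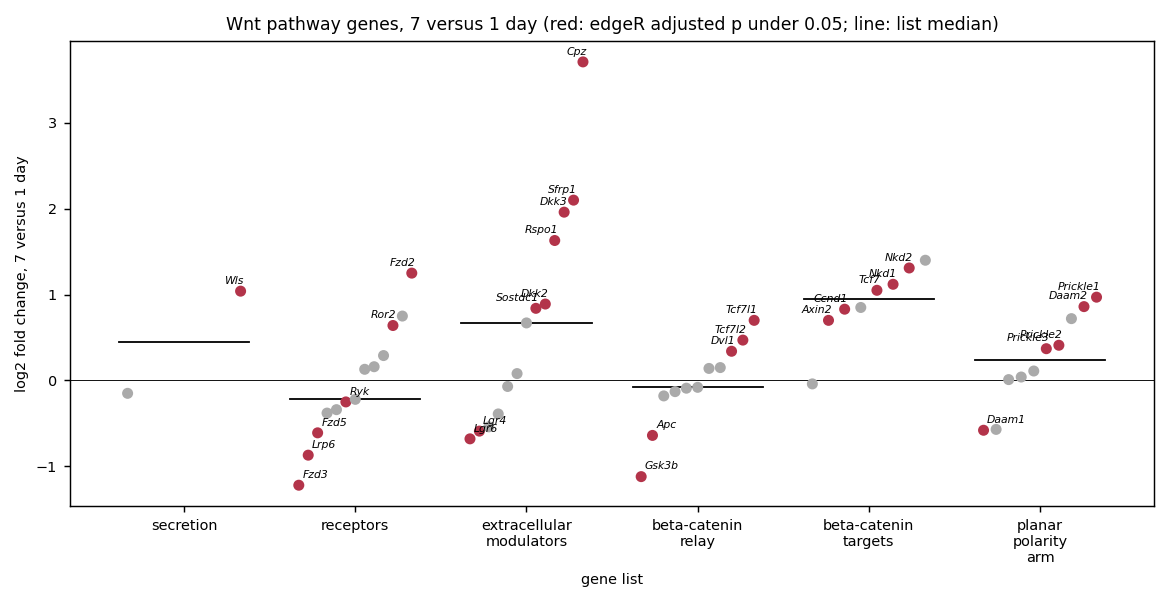
Log2 fold change from 1 to 7 days for the tested genes of 6 pathway lists, 1 point per gene, red where the edgeR adjusted p was under 0.05, with a line at each list's median. Modulators (median 0.67) and targets (0.95) lie mostly above 0 and receptors (-0.22) on both sides of it. All are from the fit with replicate 5 of the 1-day group, without which the receptor median was 0.06.

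Against 7 days, 21.4% of all genes tested were higher and 16.9% lower in the libraries labelled 14 days. Without replicate 2 labelled 14 days, 3896 of 14852 genes tested were higher and 3563 lower. Of 14 receptor genes tested 6 rose and 3 fell, or 6 and 2 without that library. Of 16 modulators 6 rose and 5 fell, or 8 and 4 of 17 without it. Of 11 relay genes 1 rose and 1 fell, or 7 and 1 without it. Of 8 targets 1 rose and 2 fell, or 1 and 3 of 9 without it. Of 10 planar polarity genes none rose and 3 fell, or 2 and 1 without it. With replicate 2 as the only library labelled 14 days, the median log2 fold change was 0.25 for receptors and -0.48 for modulators. It was then -0.08 for relay genes, -2.01 for targets and -0.24 for planar polarity genes, and -0.037 for all genes tested.

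The genes with the pattern most like each called member were found by the root mean square difference of centred log2 CPM (counts scaled to library depth) over the 15 libraries of 1, 3 and 7 days. Nearest to Wnt2 were Ptprn, a protein of secretory granules, at 0.54, and the glycine transporter Slc6a9, at 0.62, against a spread of Wnt2 itself of 1.23. Ptprn averaged 219, 93.5 and 46.7 FPKM and Slc6a9 23, 6.74 and 4.83 FPKM at 1, 3 and 7 days. Nearest to Wnt2b were the peptide transporter Slc15a2 (0.37) and Hpgd, which degrades prostaglandins (0.38), against a spread of 0.87. Nearest to Wnt9b were Pfkfb3, a regulator of glycolysis (0.86), and Clca4 (0.87), against a spread of 1.81, and both were high in replicate 5 of the 1-day group, at 71.6 and 115 FPKM.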

How the data were processed

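RNA from rat kidney was poly(A)-selected on oligo-dT beads and copied with random hexamers, per the labels' protocols. The submitters' processing notes name fastp 0.19.7 and HISAT2 2.0.4. Genome build, counting tool and strand setting were not given in the sources used here. Reads of an overlapping or antisense gene can therefore not be told apart. The authors deposited raw read counts and FPKM for every gene in each library, per the file headers. Libraries were grouped by their labels.

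From the counts, genes were filtered with filterByExpr (minimum count 10, minimum total 15), scaled by TMM and fitted by quasi-likelihood with edgeR 4.0.16 (R 4.3.3). The 1-, 3- and 7-day comparisons used their 15 libraries (13991 genes), and those with 14 days all 18 (14511 genes). A call was a Benjamini-Hochberg adjusted p under 0.05 over all genes tested. The scripts were tested on simulated data, where 4-fold changes were recovered for 90%, 93% and 92% of genes in 3 versus 1, 7 versus 3 and 7 versus 1 day, and for 81% in both comparisons with 14 days. Changes of 2-fold were recovered for 71%, 67% and 72%, for 50% in 14 versus 7 days and for 46% in 14 versus 1 day. Promoters came from RefSeq on GRCr8.

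The members, the gene lists and the tests were chosen with earlier results of these data known. Named genes were the members, up to 3 called genes per pathway list and direction with the largest fold change and a mean of at least 1 FPKM, and the 2 genes most like each member called in the joint test. Lists held 163 genes, of which 159 were found. Alternatives were RLE size factors, DESeq2 1.42.0, no filter, a stricter filter (at least 20 counts), limma 3.58.1 on log2(FPKM + 1) and log2(FPKM + 0.1), a replicate block, all 18 libraries, the compared groups alone, and each library left out. Fits with replicate 2 as the only library labelled 14 days, and without both that library and replicate 5 of 1 day, were chosen after seeing the data.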

Additional observations from a re-analysis of the deposited data

Results flagged for a closer look

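By chance Dixon's test sets apart the highest or lowest value in about 1 in 20 groups that are independent and normally spread. The groups here share libraries, some genes lie near 0 FPKM and many were picked as called, so that rate is a rough guide. In groups of 5 libraries, the highest or lowest library stood apart from the others by this test in 15 of 111 groups looked at. Of these, 8 concerned replicate 5 of the 1-day group, which was high in Wnt4 (4.86 FPKM), Wnt7b (26 FPKM), Wnt9b (25.8 FPKM), Mmp7 (9.66 FPKM), Nkd1 (5.84 FPKM), Prickle1 (3.96 FPKM), Tcf7l1 (7.6 FPKM) and Tcf7l2 (7.39 FPKM). Within the 1-day group, replicate 2 was low in Gsk3b (12.8 FPKM) and in Tcf7 (0.661 FPKM), and replicate 3 was high in Nkd2 (5.04 FPKM).

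Single libraries also stood apart for ligands near their detection limit. At 3 days replicate 1 was high in Wnt6 (0.403 FPKM) and replicate 4 was low in Wnt11 (0 FPKM). At 7 days replicate 1 was high in Wnt9b (0.388 FPKM) and replicate 4 in Wnt10a (1.58 FPKM).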

How the results depend on the processing

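Of the values for named genes under the alternatives, 2065 kept their direction and their side of the threshold, 210 lost a call, 15 gained one and 39 turned sign. The number of genes called moved from 1463 (3 versus 1 day) to 330 with all 18 libraries in a fit and 2216 with DESeq2, and over 775 to 2016 with 1 library left out. For 7 versus 3 days it moved from 1108 to 152, 1959 and 324 to 1772 in the same order. For 14 versus 7 days it moved from 5560 to 3153 with only the groups compared and over 4559 to 7459 with 1 library left out. For 14 versus 1 day it moved from 4646 to 1628 with only the groups compared, to 7216 without replicate 2 labelled 14 days and replicate 5 of 1 day, and over 3682 to 6405 with 1 left out. The joint test moved from 4816 to 2857 with all 18 libraries. The causes were not tested. With 1 library left out, differences that turned sign ranged as follows. For 3 versus 1 day, Wnt4 ranged from -1.68 to 1.42, Wnt5a from -0.1 to 0.49 and Wnt7b from -1.03 to 1.37. For 7 versus 3 days, Wnt9b ranged from -0.52 to 0.33, Wnt2b from -0.41 to 0.05 and Wnt5a from -0.35 to 0.15. For 7 versus 1 day, Wnt4 ranged from -1.09 to 1.71, Wnt5a from -0.22 to 0.41 and Wnt7b from -1.37 to 1.03. For 14 versus 7 days, Wnt2b ranged from -1.07 to 1.91 and Wnt10a from -0.86 to 0.08. On log2(FPKM + 1) and log2(FPKM + 0.1), Wnt7b turned to 0.24 and 0.52 (3 versus 1 day) and 0.12 and 0.4 (7 versus 1 day), Wnt4 to 0.04 and 0.62 (7 versus 1 day) and Wnt5a to 0.01 and 0.02 (7 versus 3 days). On log2(FPKM + 0.1) Wnt9b turned to 0.02 (7 versus 3 days). With replicate 2 as the only library labelled 14 days, Wnt4 turned to -1.12 and Wnt7b to -0.78 against 7 days, and Wnt9b to -3.42, Wnt4 to -1.86 and Wnt7b to -1.83 against 1 day. Without that library and replicate 5 of 1 day, Wnt2b turned to -1.07 against 7 days. Low counts limited Wnt6, Wnt10a and Wnt11.

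Replicate numbers did not pair the libraries: deviations of same-numbered libraries correlated from -0.221 to 0.17 over 15 pairs, and 2 of 15 libraries correlated best with their own number. With a replicate block, 1181 genes were called for 3 versus 1 day, 828 for 7 versus 3 days, 5034 for 7 versus 1 day, 4485 for 14 versus 7 days, 3985 for 14 versus 1 day and 4450 in the joint test. The block ended the calls of Wnt9b for 3 versus 1 day (-2.38, edgeR adjusted p = 0.244) and 7 versus 1 day (-2.45, 0.146) and in the joint test (0.206), and of Wnt2b for 14 versus 1 day (2.2, 0.087), and called Wnt9b for 14 versus 1 day (5.52, 0.0337). Under it Wnt7b turned to 0.21 (3 versus 1 day) and 0.11 (7 versus 1 day), Wnt4 to 0.49 (7 versus 1 day) and Wnt10a to 0.06 (14 versus 7 days).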
